A study of Drosophila melanogaster with 20 samples.

Results

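Furin-type proprotein convertases are subtilisin-like serine proteases of the secretory pathway that cut precursor proteins after short runs of basic residues, and so release mature ligands, receptors and enzymes. In *Drosophila*, *Fur1* and *Fur2* encode the furin-type enzymes, which are known for cutting the precursors of BMP-type ligands such as Dpp and Gbb. The third gene, *amon*, encodes the PC2-type convertase of neuroendocrine cells, which works with the helper protein 7B2 to cut neuropeptide precursors. The genes were taken by their FlyBase symbols, 3 of the 17659 genes in the count table. *Fur1* was picked on its difference between the 2 knockdowns described here, so its levels and fold change are given as a description with no test. *Fur2* and *amon* came with it as family members and were not picked for their values.

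Nascent RNA was measured by neuRNA-seq, in which cells are fed the uridine analogue EU and the labelled RNA is captured and sequenced. The cells were Kc167, a female embryonic *Drosophila* line with features of hemocytes, the insect blood cells. The compared groups were the GAF knockdown (replicates 2 and 3) and the Mi-2 knockdown (replicates 1 and 2), with 2 libraries each. GAF, the product of *Trl*, is a GAGA-binding transcription factor, and Mi-2 is a chromatin remodelling ATPase. The labels mark both treatments with the prefix ds, which the study uses for double-stranded RNA. GAF knockdown replicate 1 had no column of its name and was not analysed here. The count table also has columns named for a mock treatment, but their names match no labelled sample and they were not used, so a lower value in one knockdown cannot be told apart from a higher value in the other. Nothing in the labels says that the libraries of a group came from separate cultures, and p-values then measure only the spread between these libraries.

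The libraries held 6111424 and 12563919 counts in the GAF knockdown and 3966515 and 5686837 counts in the Mi-2 knockdown. A level is given in CPM, a gene's counts relative to the TMM-scaled total of its library, and 3 counts corresponded to between 0.236 and 0.757 CPM. A log2 fold change sets the GAF libraries over the Mi-2 libraries throughout. A gene is called at an adjusted p under 0.1 in the quasi-likelihood test of edgeR, after Benjamini-Hochberg adjustment over the 7826 genes that passed the filter on low counts. Of these, 266 genes (3.40%) were called higher and 474 (6.06%) lower in the GAF knockdown, 9.46% in all. *Mi-2* itself stood at 433 CPM in the GAF knockdown and 305 CPM in the Mi-2 knockdown, a lower level in its own knockdown (log2 fold change 0.50, adjusted p = 0.0109), while *Trl* stood at 6.97 and 10.9 CPM in the GAF knockdown and 13.4 and 12.3 in the Mi-2 knockdown and was not called (adjusted p = 0.566). The hemocyte genes *Hml* and *srp* were abundant in both groups, and *NimC1* was at 0 to 6 counts. Of the 10 hemocyte markers, 9 were tested and 3 were called higher in the GAF knockdown, and their sum was 4604 to 4856 CPM there and 4039 to 4329 CPM in the Mi-2 knockdown. Muscle and germline markers summed to at most 23.5 and 7.30 CPM in any library. Of the neuron markers, *brp* was called lower in the GAF knockdown and *Syt1* was at 0 to 8 counts. *elav* stood at 72.3 and 49.8 CPM in the GAF knockdown and 78.7 and 89.0 CPM in the Mi-2 knockdown and was not called (adjusted p = 0.237). *nSyb*, at 0 to 28 counts, had a log2 fold change of 0.69 and was not called. The Y-linked gene *kl-2*, which a female line should lack, held 743 counts in Mi-2 knockdown replicate 1 and 2, 11 and 16 counts in the other libraries, and *Fur1* is also given below without that replicate. Other Y-linked genes had counts in every library and did not single it out in this way. *kl-5* stood at 10.2 and 6.76 CPM in the GAF knockdown and 17.4 and 15.0 CPM in the Mi-2 knockdown. *WDY* stood at 3.41 and 14.2 against 13.4 and 11.4 CPM, and neither gene was called.

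*Fur1* (FBgn0004509) had one of the highest CPM values of the Mi-2 knockdown, with no correction for its long gene body. Its counts were 5989 and 12548 in the GAF knockdown and 14418 and 20473 in the Mi-2 knockdown. Scaled to the libraries, these were 971 and 987 CPM in the GAF knockdown and 3638 and 3696 CPM in the Mi-2 knockdown. Both Mi-2 libraries lay far above both GAF libraries, and the libraries within a group were close to each other. The mean was 979 ± 10.8 CPM in the GAF knockdown and 3667 ± 40.6 CPM in the Mi-2 knockdown (SD, n = 2 each), a 3.75-fold higher level in the Mi-2 knockdown (log2 fold change -1.91, SE 0.0619). By rank of CPM, *Fur1* was the 132nd and 129th gene of the GAF libraries and the 11th and 10th of the Mi-2 libraries. Per kb of gene body, its rank was 5222 and 5277 in the GAF libraries and 1849 and 1850 in the Mi-2 libraries, of 17464 genes. It took 0.098% and 0.0999% of all counts in the former and 0.363% and 0.36% in the latter.

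The replicates of *Fur1* lay closer together than those of most genes. They differed by 0.0225 on the log2 scale in the GAF knockdown and by 0.0226 in the Mi-2 knockdown, where the median gap over the genes tested was 0.192 and 0.258. Only 7.35% of genes in the GAF knockdown and 5.28% in the Mi-2 knockdown had a smaller gap. Most of the genes tested had far fewer counts than *Fur1*, with a median of 40.9 to 41.3 CPM in the libraries. *Fur1* was also picked on its difference between the groups. Its small gaps are therefore a description and no measure of reliability. The SD of *Fur1* rests on 2 libraries in each group. Leaving out each library in turn gave between 3.68 and 3.80-fold, and 3.77-fold without Mi-2 knockdown replicate 1.

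*Fur2* (FBgn0004598) was close to level between the knockdowns. Its counts were 1351 and 2700 in the GAF knockdown and 784 and 1133 in the Mi-2 knockdown, which is 219 and 212 CPM against 198 and 205 CPM. Both GAF libraries were slightly above both Mi-2 libraries, and the groups likewise did not overlap, in either direction, for 50.8% of the genes tested. The means were 216 ± 4.82 and 201 ± 4.73 CPM (SD, n = 2 each), and the log2 fold change of 0.10 (SE 0.112) was not called (adjusted p = 0.686). It ranged from 0.07 to 0.14 over the alternatives.

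*amon* (FBgn0023179) was close to the counting floor. It had 0 and 7 counts in the GAF knockdown and 17 and 5 counts in the Mi-2 knockdown, or 0 and 0.550 CPM against 4.29 and 0.903 CPM. The highest value was that of Mi-2 knockdown replicate 1, which also held the *kl-2* counts. The gene did not pass the filter and was not tested. With no filter, its log2 fold change was -3.01 with an SE of 2.31 (adjusted p = 0.642), so no difference was detectable at this depth.

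**Figure D1:**
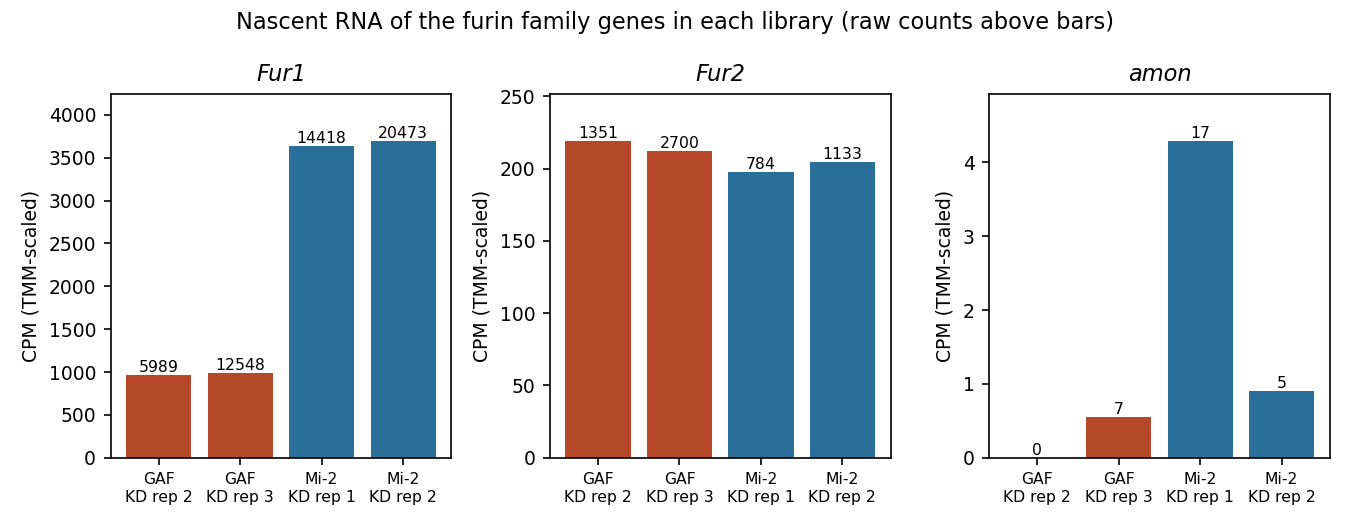
Level of *Fur1*, *Fur2* and *amon* in CPM in each of the 4 libraries, with 1 bar for each library, its raw count above it, and a scale of its own for each gene. *Fur1* sits at 971 and 987 CPM in the GAF knockdown and at 3638 and 3696 CPM in the Mi-2 knockdown, while *Fur2* stays between 198 and 219 CPM and *amon* at or under 4.29 CPM.

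The 3 genes differ in size, and levels are compared between them per kb of gene body. Coordinates are those of the dm6 assembly in the Ensembl annotation. *Fur1* lies on chromosome 3R at 25347431 to 25473058, minus strand, a gene body of 125.6 kb with 9 annotated transcripts from 1 start and 7.27% exonic sequence. *Fur2* lies on chromosome X at 16373086 to 16381782, plus strand, and spans 8.7 kb with 9 transcripts from 3 starts and 74.4% exonic sequence. *amon* lies on chromosome 3R at 26697697 to 26714159, minus strand, with 1 transcript and 24.2% exonic sequence.

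Per kb of gene body, *Fur1* stood at 7.73 and 7.85 CPM in the GAF knockdown and 29.0 and 29.4 CPM in the Mi-2 knockdown. *Fur2* stood at 25.2 and 24.4 CPM per kb in the GAF knockdown and 22.7 and 23.5 in the Mi-2 knockdown. *Fur2* was therefore the higher of the pair per kb of gene body in both GAF libraries, and *Fur1* in both Mi-2 libraries. As *Fur2* was close to level, this change of order restates the difference on which *Fur1* was picked. This order rests on the whole gene body, of which 7.27% is exonic in *Fur1* and 74.4% in *Fur2*. Levels per kb of exon were not computed, and the order could differ there. The *Fur1* to *Fur2* ratio of CPM per kb was 0.307 and 0.322 in the GAF knockdown and 1.27 and 1.25 in the Mi-2 knockdown. *amon* was the lowest in every library, with means of 0.0167 ± 0.0236 and 0.158 ± 0.145 CPM per kb (SD, n = 2 each). Among the genes tested, *Fur1* exceeded 32.3% and 31.6% per kb in the GAF libraries and 76.1% and 76.0% in the Mi-2 libraries.

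Few genes with a high CPM differed as much as *Fur1*, which was chosen for this difference. Of the 7826 genes tested, 182 had a lower log2 fold change. Among the 136 genes with a mean of at least 1000 CPM, the median was -0.10, and 9 were called higher and 42 lower in the GAF knockdown. Over all genes tested, 3.40% were called higher and 6.06% lower. Of the 136, only *CG45263* had a lower value than *Fur1*, at -2.04. Both genes reached 1000 CPM only through the Mi-2 knockdown, with 979 CPM for *Fur1* and 425 CPM for *CG45263* in the GAF knockdown. Their place in this set is therefore not independent of their difference.

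**Figure D2:**
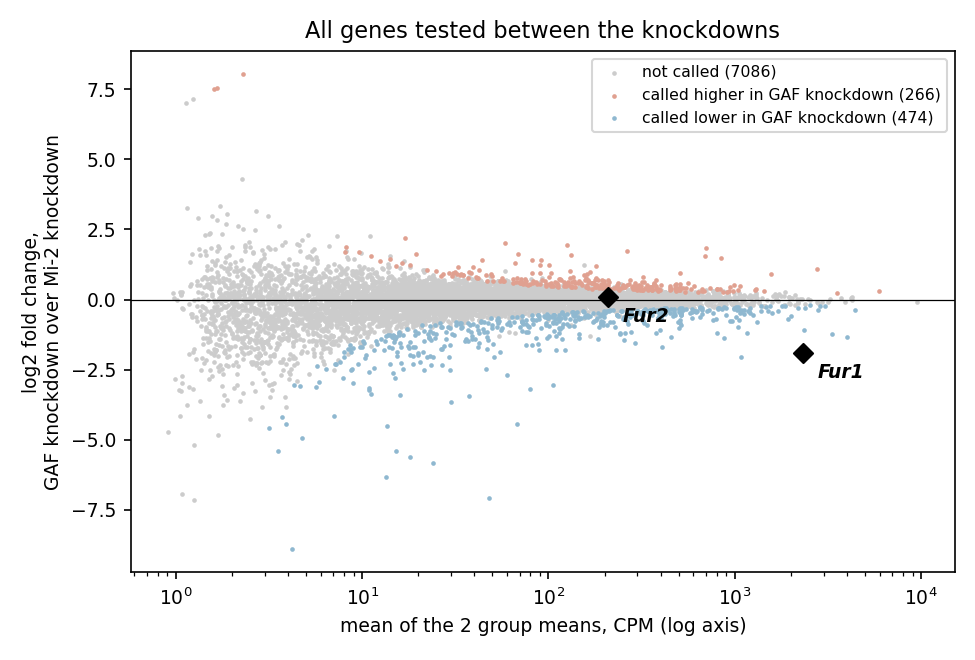
Log2 fold change (GAF over Mi-2 knockdown) against mean level in CPM on a log axis, one point for each of the 7826 genes tested, coloured where called, with diamonds for *Fur1* and *Fur2*. *Fur1* lies at -1.91 among the genes with the highest CPM and *Fur2* at 0.10.

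Gene length moved with the comparison. The 87 tested genes of at least 100 kb had a median log2 fold change of -0.40. In the GAF knockdown 0 of them were called higher and 37 lower, beside 3.40% and 6.06% of all genes tested. Of the 87, 6 lay below *Fur1* (*Antp*, *lncRNA:CR44833*, *CG42750*, *bbg*, *CG34353* and *CG45263*), of which *Antp*, *CG42750* and *CG34353* were not called. The trend of log2 fold change on gene length was -0.39 at the length of *Fur1* and 0.03 at that of *Fur2*. It was below 0 for short genes too, at -0.77 for a log10 length in bp of 2, and reached 0.07 at 3.6. With the trend removed, *Fur1* was 2.85-fold higher in the Mi-2 knockdown (log2 fold change -1.51), and the part of length in its difference was not tested further. The 1872 tested genes of its chromosome arm, 3R, had a median of 0.0041, with 64 called higher and 123 lower. These counts also stand beside 3.40% and 6.06% of all genes tested.

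**Figure D3:**
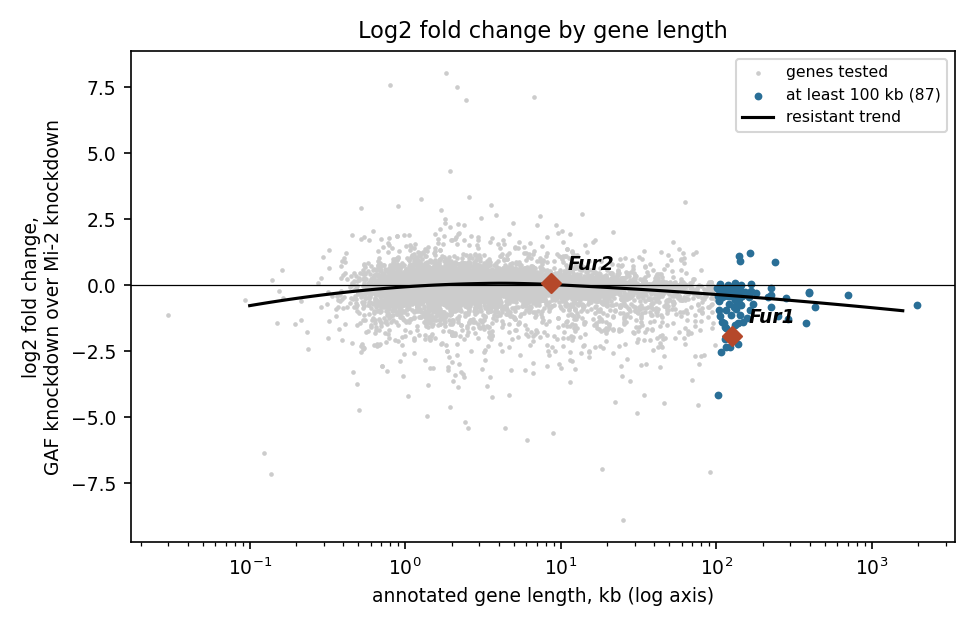
Log2 fold change (GAF over Mi-2 knockdown) against gene length on a log axis for the genes tested, with genes of at least 100 kb in blue, the fitted trend as a line and diamonds for *Fur1* and *Fur2*. The trend is below 0 for the shortest and the longest genes and is -0.39 at the length of *Fur1*. *Fur1* lies below the trend at -1.91.

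The genes whose profile was nearest to that of *Fur1* over the 4 libraries, by Euclidean distance of centred log2 CPM among 7821 genes, were *CG45263*, *Dtg*, *Duox*, *dnr1* and *JhI-26*, at distances of 0.137, 0.167, 0.169, 0.211 and 0.230. *CG45263*, itself 113290 bp long, stood at 431 and 419 CPM in the GAF knockdown and 1725 and 1757 CPM in the Mi-2 knockdown, and so was nearest in level as well. *dnr1*, a negative regulator of innate immune signalling, stood at 52.4 and 56.9 against 205 and 177 CPM, and *JhI-26* at 44.4 and 53.0 against 179 and 161 CPM. *Duox*, which encodes the dual oxidase, stood at 6.81 and 6.45 against 25.2 and 23.1 CPM, and *Dtg*, named as a target of Dpp, at 3.24 and 2.99 against 11.9 and 13.9 CPM. All 5 shared the higher level of the Mi-2 libraries by the way they were chosen, and over so few libraries many genes do, as Pearson's r with *Fur1* exceeded 0.99 for 161 genes.

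The genes around *Fur1* differed in both directions. Those tested differed less than *Fur1*, but it was picked for its difference, so this contrast is a description only. Within 50 kb of its ends or inside it lay 39 genes, of which 4 overlapped it (*alrm* and *Muc96D* on the same strand, *ND-49L* and *CG31437* on the other). All 4 had 0 counts in every library, and 96.4% of the *Fur1* body is shared with no other gene of its strand. Of the 15 neighbours tested, 1 was called higher and 3 lower in the GAF knockdown, beside 3.40% and 6.06% of all genes tested, and their log2 fold changes ran from -1.48 to 0.52 around a median of 0.12. *CHKov2* stood at 41.5 and 48.5 CPM in the GAF knockdown and 90.8 and 108 CPM in the Mi-2 knockdown (log2 fold change -1.14, adjusted p = 0.00496), a call kept in every alternative, with leaving out any library among them. *CHKov1* stood at 315 and 308 against 440 and 504 CPM (log2 fold change -0.60, adjusted p = 0.0073), and the call was lost without GAF knockdown replicate 3 (adjusted p = 0.140). *CG33494* stood at 4.70 and 9.12 against 21.7 and 17.9 CPM (log2 fold change -1.48, adjusted p = 0.0726), and *XNP*, the fly relative of the chromatin remodeller ATRX, went the other way at 245 and 239 against 157 and 181 CPM (log2 fold change 0.52, adjusted p = 0.0336). Both calls were lost without GAF knockdown replicate 2 (adjusted p = 0.436 and 0.303) and without replicate 3 (0.133 and 0.247). *Vps33B*, 432 bp from the *Fur1* body, was not called (log2 fold change 0.38, adjusted p = 0.364), and *tobi*, 510 bp away, was too low to test.

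All 19 genes within 50 kb of *Fur2* were tested, and 1, *CG4239*, was called, lower in the GAF knockdown, beside 6.06% of all genes tested. *CG4239* lies 3496 bp from the *Fur2* body. It stood at 51.1 and 51.6 CPM against 105 and 83.9 CPM (log2 fold change -0.88, adjusted p = 0.0172), and the call was lost without GAF knockdown replicate 2 (adjusted p = 0.202) or 3 (adjusted p = 0.206). The median of the 19 was -0.10. Around *amon* lay 11 genes, of which *CG6425* and *CG6420* were tested and 0 called.

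**Figure D4:**
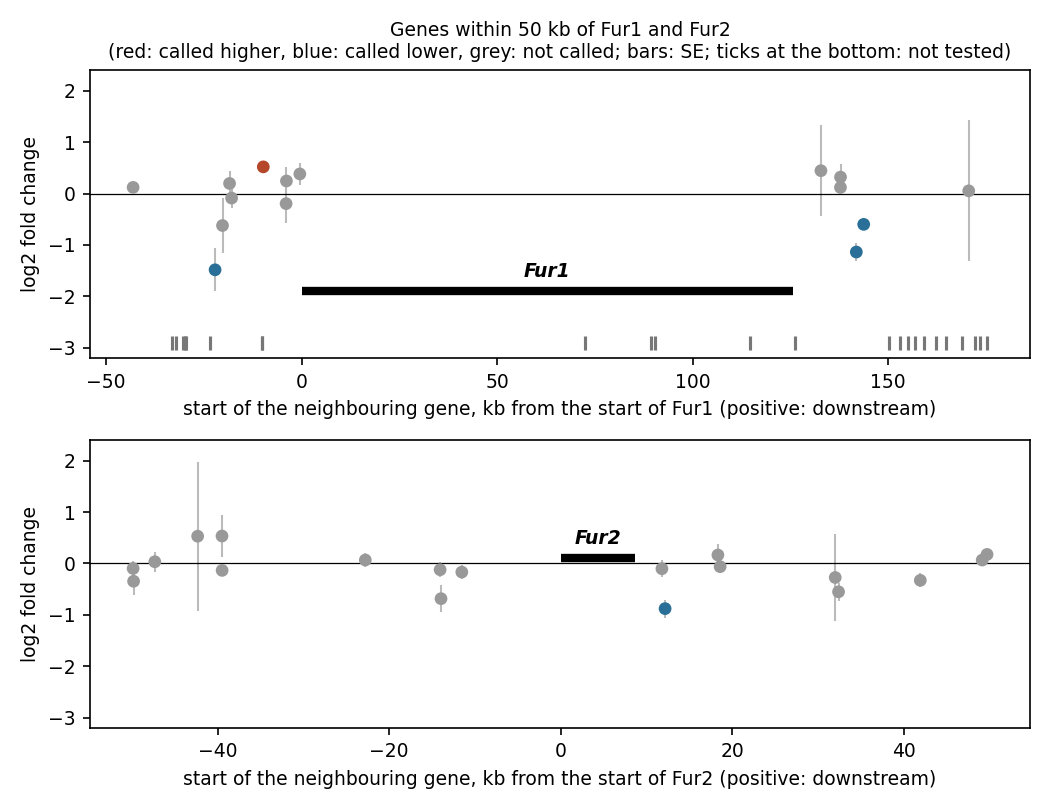
Log2 fold change (GAF over Mi-2 knockdown) of the genes within 50 kb of *Fur1* and *Fur2* against the distance of their start from that of the member in kb, with bars for the SE, ticks at the bottom for genes not tested and a black bar for the member's body. The neighbours of *Fur1* lie between -1.48 and 0.52 and those of *Fur2* around a median of -0.10.

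The genes that work with or downstream of the convertases were read from 7 lists of 48 genes, of which 47 had a row and 40 were tested. In the GAF knockdown 3 were called higher and 3 lower, 15% of those tested beside 9.46% of all genes, and the median log2 fold change was -0.005 beside -0.0024 over all genes tested. Every one of the 6 calls was lost without GAF knockdown replicate 2, when 0 genes were called, and 1 was called without replicate 3. At those settings the calls over all genes also fell, to 2.33% and 2.27%.

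The other subtilisin-type proteases were not called. The log2 fold change was -0.21 for *S1P*, the site-1 protease of the Golgi (adjusted p = 0.719), and 0.39 for *TppII*, a cytosolic tripeptidyl peptidase (adjusted p = 0.312). *Spn42Da*, a serpin with a furin-inhibiting form, stood at 89.5 and 73.1 CPM in the GAF knockdown and 102 and 88.1 CPM in the Mi-2 knockdown and was not called (log2 fold change -0.23, adjusted p = 0.510).

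Of the prohormone maturation genes, 4 of 6 were tested and 0 called, beside 9.46% of all genes tested. *svr*, a carboxypeptidase that trims the basic residues left after cutting, had a log2 fold change of -0.01, and the amidating enzymes *Phm* and *Pal1* had 0.17 and -0.06. *7B2*, the helper of *amon*, had 0 counts in every library and *Pal2* had 1 count in all. *dimm*, a transcription factor of neuroendocrine cells, stood at 3.57 and 2.36 CPM against 9.08 and 7.58 CPM (log2 fold change -1.50, adjusted p = 0.253). The neuron markers summed to 147 to 182 CPM in the GAF knockdown and 329 to 375 CPM in the Mi-2 knockdown, of which *brp* made up 108 and 94.0 against 249 and 283 CPM (log2 fold change -1.40, adjusted p = 0.000265). Of the 4 markers with a row, 3 were tested and 1 was called, beside the same 9.46%. The part of these markers in the *Fur1*, *amon* and *dimm* values was not tested.

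Among the TGF-beta ligands, whose precursors convertases cut, 5 of 7 were tested. Of these, 2 were called lower in the GAF knockdown, beside 6.06% of all genes tested. *dpp*, a BMP-type ligand, had 67 and 150 counts in the GAF knockdown and 96 and 124 in the Mi-2 knockdown, which is 10.9 and 11.8 against 24.2 and 22.4 CPM (log2 fold change -1.03, SE 0.302, adjusted p = 0.0799). *mav* had 87 and 224 against 116 and 177 counts, or 14.1 and 17.6 against 29.3 and 31.9 CPM (log2 fold change -0.94, SE 0.271, adjusted p = 0.0779). Both calls were lost in DESeq2 (adjusted p = 0.170 and 0.147), and without GAF knockdown replicate 2 (0.442 and 0.495) or 3 (0.297 and 0.243). That of *dpp* was also lost without Mi-2 knockdown replicate 1 (0.112) and with the length trend removed (0.142). *gbb*, the partner of *dpp*, stood at 25.0 and 35.9 against 31.8 and 38.1 CPM, which overlap (log2 fold change -0.19). *daw* and *myo* had -0.02 and 0.01, and *scw* and *Actbeta* had 0 counts in every library. The list of TGF-beta receptors and Smads also holds *brk*, a repressor of Dpp targets, and *shn*. None of its 10 tested genes was called, beside 9.46% of all genes tested. Their median was -0.07, from -0.29 for *brk* to 0.80 for the receptor *wit*.

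Of the other proteins listed as convertase substrates, 8 of 11 were tested. In the GAF knockdown 2 were called higher and 1 lower, beside 3.40% and 6.06% of all genes tested. *N*, the receptor Notch, whose mammalian relatives furin cuts, stood at 182 and 161 CPM in the GAF knockdown and 102 and 93.3 CPM in the Mi-2 knockdown (log2 fold change 0.81, SE 0.139, adjusted p = 0.00793). The call was lost without GAF knockdown replicate 2 (adjusted p = 0.157), and the log2 fold change is under the stricter threshold of 1. The matrix metalloproteinases went opposite ways. *Mmp2* had 90 and 188 counts in the GAF knockdown and 118 and 187 counts in the Mi-2 knockdown, or 14.6 and 14.8 against 29.8 and 33.8 CPM (log2 fold change -1.11, SE 0.265, adjusted p = 0.0366). *Mmp1* stood at 744 and 771 against 591 and 642 CPM (log2 fold change 0.30, adjusted p = 0.0706). Without GAF knockdown replicate 2 or 3 neither was called (adjusted p = 0.248 and 0.237 for *Mmp2*, 0.381 and 0.386 for *Mmp1*), and *Mmp2* was not called with the length trend removed (0.120). *InR*, the insulin receptor, stood at 2079 and 2023 against 1979 and 1993 CPM and *kuz*, an ADAM protease, at 3215 and 3353 against 3043 and 3368 CPM. Neither was called (log2 fold changes 0.05 and 0.04).

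Of the 10 trans-Golgi sorting genes tested, 1 was called, beside 9.46% of all genes tested. *Chc*, the clathrin heavy chain, stood at 757 and 717 CPM in the GAF knockdown and 592 and 607 CPM in the Mi-2 knockdown (log2 fold change 0.30, adjusted p = 0.0634), and was not called without GAF knockdown replicate 2 (adjusted p = 0.541) or 3 (0.289) or with the length trend removed (0.114). The adaptor gene *AP-1mu* was not called (log2 fold change 0.47, adjusted p = 0.241).

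**Figure D5:**
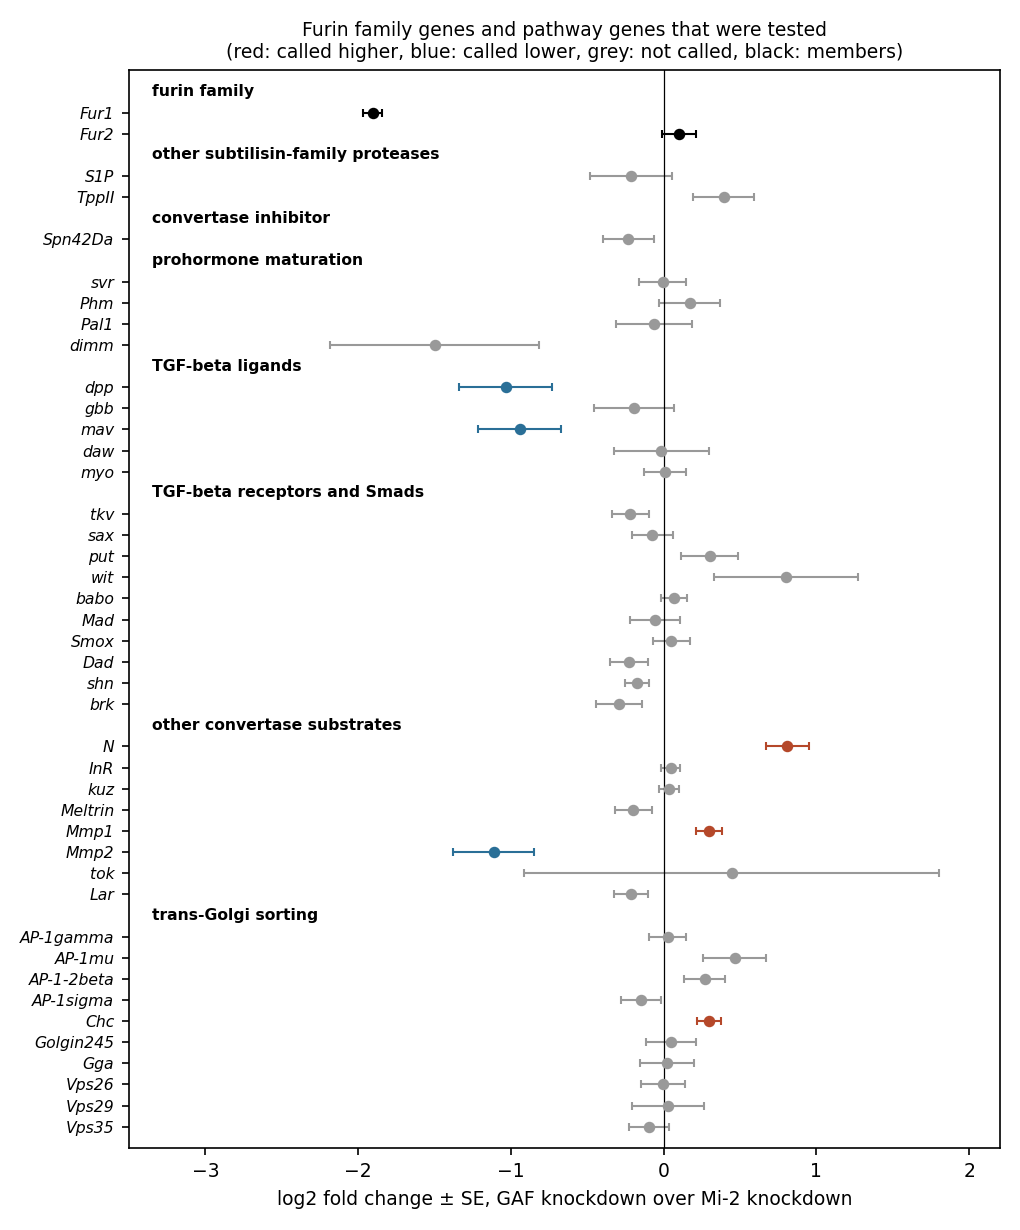
Log2 fold change (GAF over Mi-2 knockdown) with SE of each tested gene of the 7 convertase pathway lists, grouped by role, beside *Fur1* and *Fur2*. *dpp*, *mav* and *Mmp2* are called lower and *N*, *Mmp1* and *Chc* higher in the GAF knockdown, and the other tested list genes are not called.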

How the data were processed

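neuRNA-seq libraries of Kc167 cells were read from 1 count table, using the 4 columns named for a labelled sample of the GAF or Mi-2 knockdown. The 6 columns that match no labelled sample (3 carry a mock name and 3 a Dcr-2 name), and a second identical table, were not used. Raw counts per gene were deposited with no normalization. According to the methods for neuRNA-seq, which do not name these libraries, the authors trimmed reads with cutadapt 1.10, mapped them to dm6 with HISAT2 2.0.4 and counted sense reads over gene bodies with featureCounts 1.5.0-p3. A read on 2 genes of 1 strand may then be lost, and intronic reads of long genes are counted. CPM values are not corrected for length.

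Counts were filtered with filterByExpr, scaled by TMM and compared with edgeR 4.0.16 (glmQLFit and glmQLFTest, R 4.3.3) across all 7826 genes, with Benjamini-Hochberg adjustment and a call at 0.1, the threshold of the study. The SE is the log2 fold change over the root of F. Group means carry the SD over 2 libraries, and an exact permutation test of a gene could not go below p = 0.333. Replicates differed beyond counting noise (chi-square per degree of freedom 9.81 and 9.88), and were counted separately. Alternatives were DESeq2 1.42.0, 3 other scalings, no filter, stricter calls, removal of the length trend, and leaving out each library. Names and positions came from Ensembl 115, which matched 17464 of 17659 genes. Named genes were the members, the genes of the lists, genes within 50 kb, *Trl*, *Mi-2* and the 5 with the profile nearest to *Fur1*. Genes picked out for a comparison of size or length were chosen after their values were seen. The members and lists were chosen with earlier results of these data known. No sequence is shown. GAF knockdown replicate 1 and the other groups of the series were not analysed here.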

Additional observations from a re-analysis of the deposited data

How the results depend on the processing

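The log2 fold change of *Fur1*, whose direction its choice fixed, was -1.93 with upper-quartile scaling, -1.87 with library size alone, -1.88 without the filter and -1.51 with the length trend removed, and -1.93 to -1.88 with each library left out. *Fur2* was not called in any. Genes called higher numbered 494 without the filter, 128 at an adjusted p under 0.05 and 36 when the absolute log2 fold change also had to reach 1, where 193 were called lower. With each library left out, 32 to 998 were called higher and 154 to 818 lower. Of the called genes, 35.9% were higher, against 47.0% without the filter and 15.7% with the fold threshold. In the pathway lists, 1 gene was called lower in DESeq2 and 1 with the length trend removed. With each library left out, 0 to 8 were called higher and 0 to 4 lower. Of the neighbours, 2 were called higher with the length trend removed, and 0 to 3 higher and 1 to 7 lower with each library left out. Over the length that no other gene shares, *Fur1* had 8.09 and 30.3 CPM per kb. By Pearson's r, 1 of the 5 nearest genes was the same. When a library is left out, its group has 1 sample, which is assumed to vary like the other group. No paired analysis was possible because the groups share only replicate number 2. No alternative value is given for *amon*, which was not tested, apart from that without the filter. Depth limits *amon*, and the 2 libraries of each group limit every other value.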
